A study of Citrus maxima and Citrus sinensis with 8 samples.

Results

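A set of 55 genes stood higher in leaves of aluminium-treated Citrus sinensis (sweet orange) than in its control leaves, while their mean level in Citrus grandis (pummelo) differed little between treatments. They were picked out of 30297 gene IDs by their levels in FPKM, the fragments on a gene scaled by its length and by the library total. With 1 FPKM added to each value, the lower of the 2 C. sinensis aluminium libraries had to reach at least 2 times the higher of the 2 C. sinensis control libraries. The mean of the C. grandis aluminium libraries over that of its control libraries had to lie within a factor of 1.5 in either direction. The mean over the 4 C. grandis libraries had to be at least 1 FPKM, and the mean over all 8 libraries below 500 FPKM. The aluminium changes in both species therefore chose these genes, and they are given as a description with no test.

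The groups were C. sinensis seedlings given aluminium for 18 weeks, C. sinensis control seedlings, C. grandis seedlings given aluminium for 18 weeks and C. grandis control seedlings, with 2 libraries each. Each library came from a pool of leaves from 5 seedlings. The labels of C. grandis carry the synonym Citrus maxima. The sources used here give neither the aluminium dose nor the medium.

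Aluminium dissolves as a toxic ion in acid soil and first harms the growing root tip. C. sinensis is known as the more aluminium-tolerant species of the pair. Many plants hold most of it in the root, and one known defence is the release of malate or citrate from the root, which binds the ion outside the cell. Leaves receive little of it, yet their photosynthesis and nutrient status can change when the root is damaged. Transcripts in leaves after weeks of exposure can thus differ without the metal itself being high in the leaf. The IDs come without gene names or products in these files, and no annotation was used here. No role is therefore given for any of the 55 genes, no pathway list could be counted, and the leaf label was not checked against marker genes.

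Depth was similar between libraries, with totals of 16443205 to 19794247 reads. The replicates agreed to different degrees. The chi-square of the reads of a gene, averaged over genes, was 82.7 per degree of freedom between the C. sinensis aluminium libraries and 9.69 between the C. sinensis controls. It was 1.77 between the C. grandis aluminium libraries and 58.9 between the C. grandis controls, where sampling noise alone gives 1. The pools of aluminium-treated C. sinensis and of control C. grandis thus stood furthest apart. Medians of log2(FPKM + 1) over all genes tested were 3.70 and 3.68 in C. sinensis aluminium leaves and 3.55 in both C. sinensis control libraries. In C. grandis they were 3.68 in both aluminium libraries and 3.73 in both control libraries.

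The same rise in C. sinensis, under the same limits on level, was met by 169 genes. Of these, 55 are the genes described here, and 69 also stood at least 2-fold higher in both C. grandis aluminium libraries than in both C. grandis controls. A further 10 stood at least 2-fold lower there, and 35 fell in none of these classes. Of the 35, the C. grandis ratio was above the allowed band in 23 and below it in 12. The set is thus a slice of a continuous range of C. grandis changes rather than a separate cloud, as the plot of both changes shows.

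**Figure D1:**
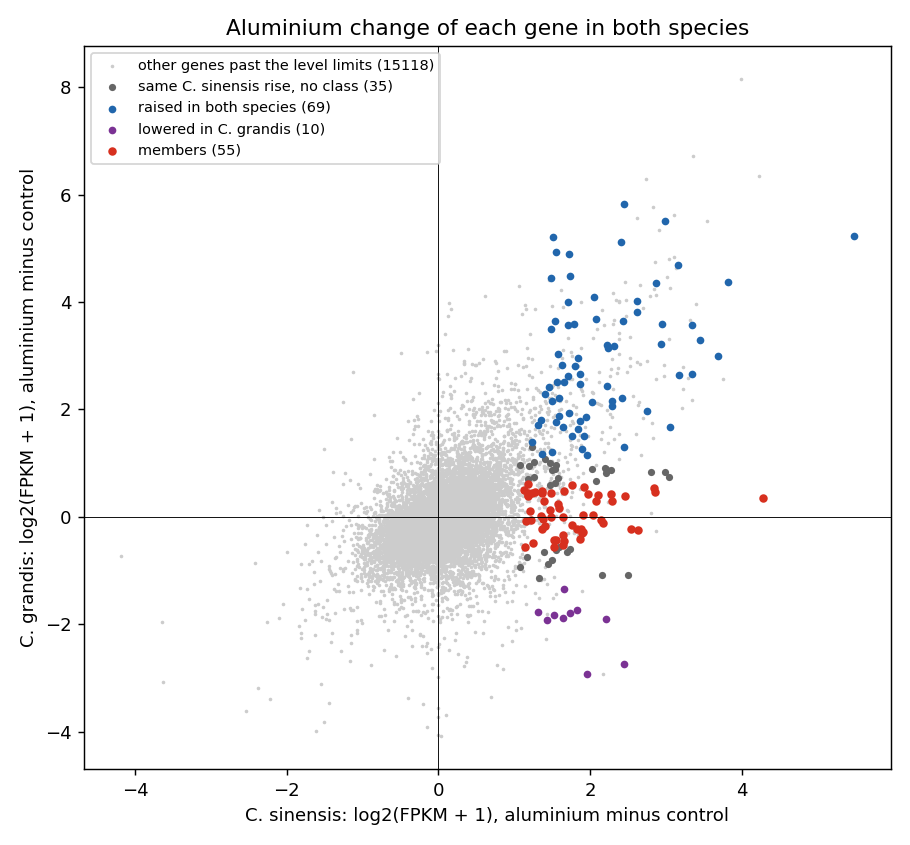
Change of each gene with aluminium on the log2(FPKM + 1) scale, in C. sinensis (horizontal axis) and in C. grandis (vertical axis), as means of 2 libraries per group for genes within the limits on level. The 55 members (red) lie between -0.55 and 0.60 on the vertical axis by the rule that chose them, with the 69 genes that stood higher in both species (blue) above them and the 10 lowered in C. grandis (purple) below.

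At the limit of the C. sinensis rise, the nearest genes inside had ratios of 2.002 (Cs1g18220), 2.01 (orange1.1t01964) and 2.03 (Cs5g04790). The nearest outside had 1.99 (Cs5g28950), 1.99 (orange1.1t01713) and 1.98 (Cs1g17100). At the upper limit of the C. grandis band, Cs6g11080 at 1.497 and Cs6g15300 at 1.496 were inside, and Cs2g16150 at 1.51 was outside. At the lower limit, Cs3g12370 at 0.671 was inside and orange1.1t01749 at 0.663 was outside. Genes on the 2 sides of a limit differed little in the ratio that sets it, while their levels could differ widely.

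Across the 55 genes the aluminium change in C. sinensis had a median of 1.64 on the log2(FPKM + 1) scale, with a range of 1.13 to 4.29. The median over the 16327 genes tested was 0.08. In C. grandis the median change of the 55 was 0.04, with a range of -0.55 to 0.60, beside -0.09 over the genes tested. As linear folds of mean FPKM in C. sinensis, the 55 ran from 2.32 to 52.4 with a median of 4.27. These figures restate the rule and carry no test.

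Levels covered a wide range. The mean FPKM of a member had a median of 12.4 in C. sinensis aluminium leaves and 3.21 in C. sinensis control leaves, and of 18.7 in C. grandis aluminium leaves and 18.9 in C. grandis control leaves. The lowest member mean in C. sinensis aluminium leaves was 1.77 FPKM and the highest 320 FPKM. In sum the 55 genes made up 0.42% and 0.339% of all reads in C. sinensis leaves given aluminium, against 0.109% and 0.108% in the C. sinensis controls. In C. grandis they made up 0.545% and 0.539% of the reads in aluminium leaves, against 0.468% and 0.503% in control leaves. The C. sinensis aluminium libraries thus lay between the C. sinensis controls and the 4 C. grandis libraries.

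Read depth differed between the members. The 2 C. sinensis control libraries together held 13 to 7092 reads of a member, with a median of 179. The 2 C. sinensis aluminium libraries together held 76 to 22483 reads, with a median of 776. Every member had reads in each of the 8 libraries, and the fewest in 1 library was 4. PCR copies count as separate reads here, so these numbers speak to counting error at best.

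The largest of the 8 leading ratios was that of Cs7g06320, which had 117 and 15.6 FPKM in C. sinensis aluminium leaves, against 1.21 and 1.32 FPKM in C. sinensis control leaves. The aluminium libraries themselves differed 7.48-fold, the widest gap between them in the set, and both lay far above the controls. In C. grandis the gene had 37.7 and 37.3 FPKM in aluminium leaves, against 39.0 and 21.6 FPKM in control leaves. The C. sinensis pools thus lay on both sides of the C. grandis level with aluminium and far below it without.

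Cs6g09430 had 12.3 and 17.8 FPKM in C. sinensis aluminium leaves, against 1.70 and 2.05 FPKM in control leaves. Its C. grandis values were 14.6 and 13.3 FPKM with aluminium, against 9.17 and 11.96 FPKM in control leaves. With aluminium 1 C. sinensis library lay within the span of C. grandis and the other above it, while both control libraries lay below it. Cs7g12870 had 111 and 35.5 FPKM in C. sinensis aluminium leaves, against 7.61 and 8.12 FPKM in control leaves, and 39.6 and 40.4 FPKM in C. grandis aluminium leaves, against 22.03 and 33.7 FPKM in control leaves. Here too replicate 1 of C. sinensis aluminium was the higher one, by 3.12-fold.

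Cs2g12490 was an exception in its placement. It had 12.4 and 13.8 FPKM in C. sinensis aluminium leaves, against 2.26 and 2.36 FPKM in control leaves. In C. grandis it had 5.53 and 6.12 FPKM in aluminium leaves, against 5.06 and 4.11 FPKM in control leaves. The C. sinensis level thus passed the C. grandis level from below. Cs2g18830 had 23.0 and 27.4 FPKM in C. sinensis aluminium leaves, against 5.27 and 4.54 FPKM in control leaves. Its C. grandis values were 30.1 and 27.7 FPKM with aluminium, against 37.3 and 24.1 FPKM in control leaves, so C. sinensis with aluminium overlapped them.

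The other 3 of the 8 stayed below C. grandis with aluminium. Cs7g30160 had 17.7 and 22.5 FPKM in C. sinensis aluminium leaves, against 3.92 and 3.82 FPKM in control leaves, and 57.2 and 55.3 FPKM in C. grandis aluminium leaves, against 29.9 and 59.0 FPKM in control leaves. Cs3g20570 had 17.6 and 8.99 FPKM in C. sinensis aluminium leaves, against 1.01 and 1.73 FPKM in control leaves, and 46.6 and 48.0 FPKM in C. grandis aluminium leaves, against 57.8 and 53.5 FPKM in control leaves. For orange1.1t02796 the C. sinensis values were 14.3 and 4.25 FPKM with aluminium, against 0.457 and 0.427 FPKM in control leaves. In C. grandis that gene had 42.3 and 43.9 FPKM with aluminium, against 40.2 and 66.1 FPKM in control leaves.

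**Figure D2:**
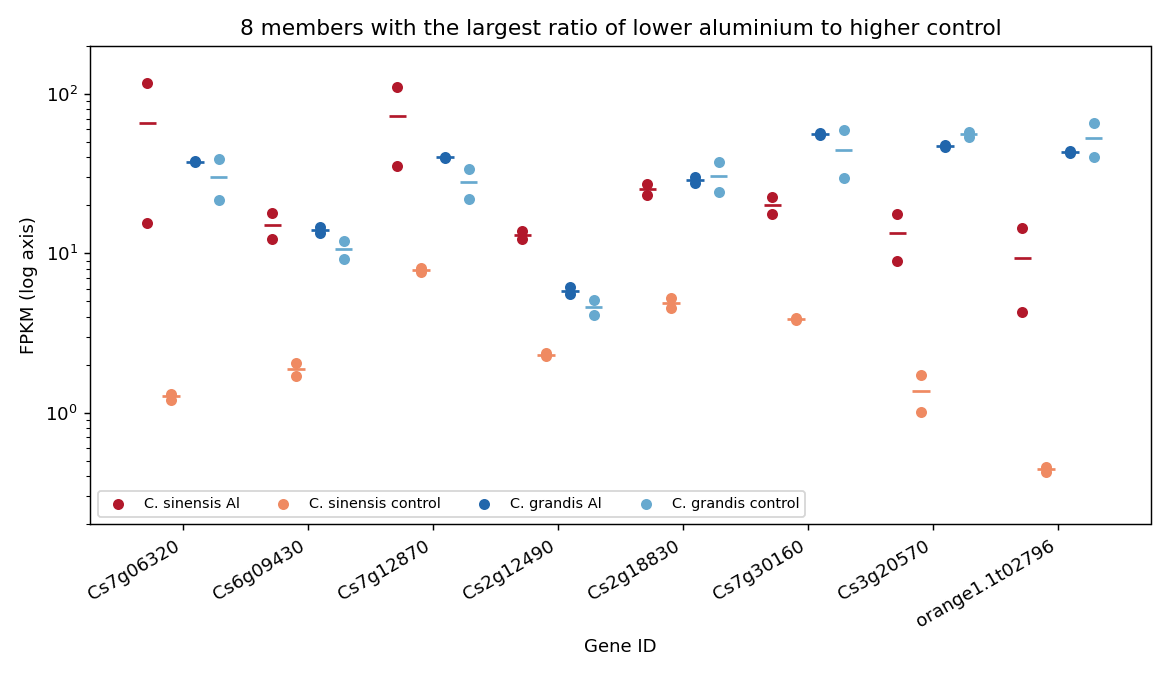
FPKM (log axis) of the 8 members with the largest ratio of the lower C. sinensis aluminium library to the higher C. sinensis control library; points are libraries, short lines are means of 2. In each gene both C. sinensis control libraries lie below the 6 others, and Cs7g06320 shows the widest gap between aluminium libraries, at 117 and 15.6 FPKM.

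By abundance, the 5 highest members in C. sinensis aluminium leaves were Cs3g12000, Cs7g08770, orange1.1t01993, Cs6g15300 and Cs7g12870. Cs3g12000 had 311 and 328 FPKM in C. sinensis aluminium leaves, against 104 and 96.4 FPKM in control leaves, and 352 and 346 FPKM in C. grandis aluminium leaves, against 237 and 263 FPKM in control leaves. Both species stood higher with aluminium, without overlap, and the C. grandis ratio of 1.39 kept the gene inside the band. For orange1.1t01993 the C. sinensis values were 231 and 202 FPKM with aluminium, against 49.5 and 59.4 FPKM in control leaves. Its C. grandis values were 341 and 336 FPKM with aluminium, against 248 and 259 FPKM in control leaves.

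Cs6g15300 had 152 and 122 FPKM in C. sinensis aluminium leaves, against 38.9 and 39.8 FPKM in control leaves. In C. grandis it had 157 FPKM in both aluminium libraries, against 122 and 87.3 FPKM in control leaves. It sat at the edge of the band, and its C. grandis groups did not overlap either. Cs7g08770 had 243 and 234 FPKM in C. sinensis aluminium leaves, against 99.2 and 84.9 FPKM in control leaves. Its C. grandis values were 68.9 and 73.8 FPKM with aluminium, against 152 and 46.2 FPKM in control leaves, so the C. grandis controls lay on both sides of the aluminium libraries.

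**Figure D3:**
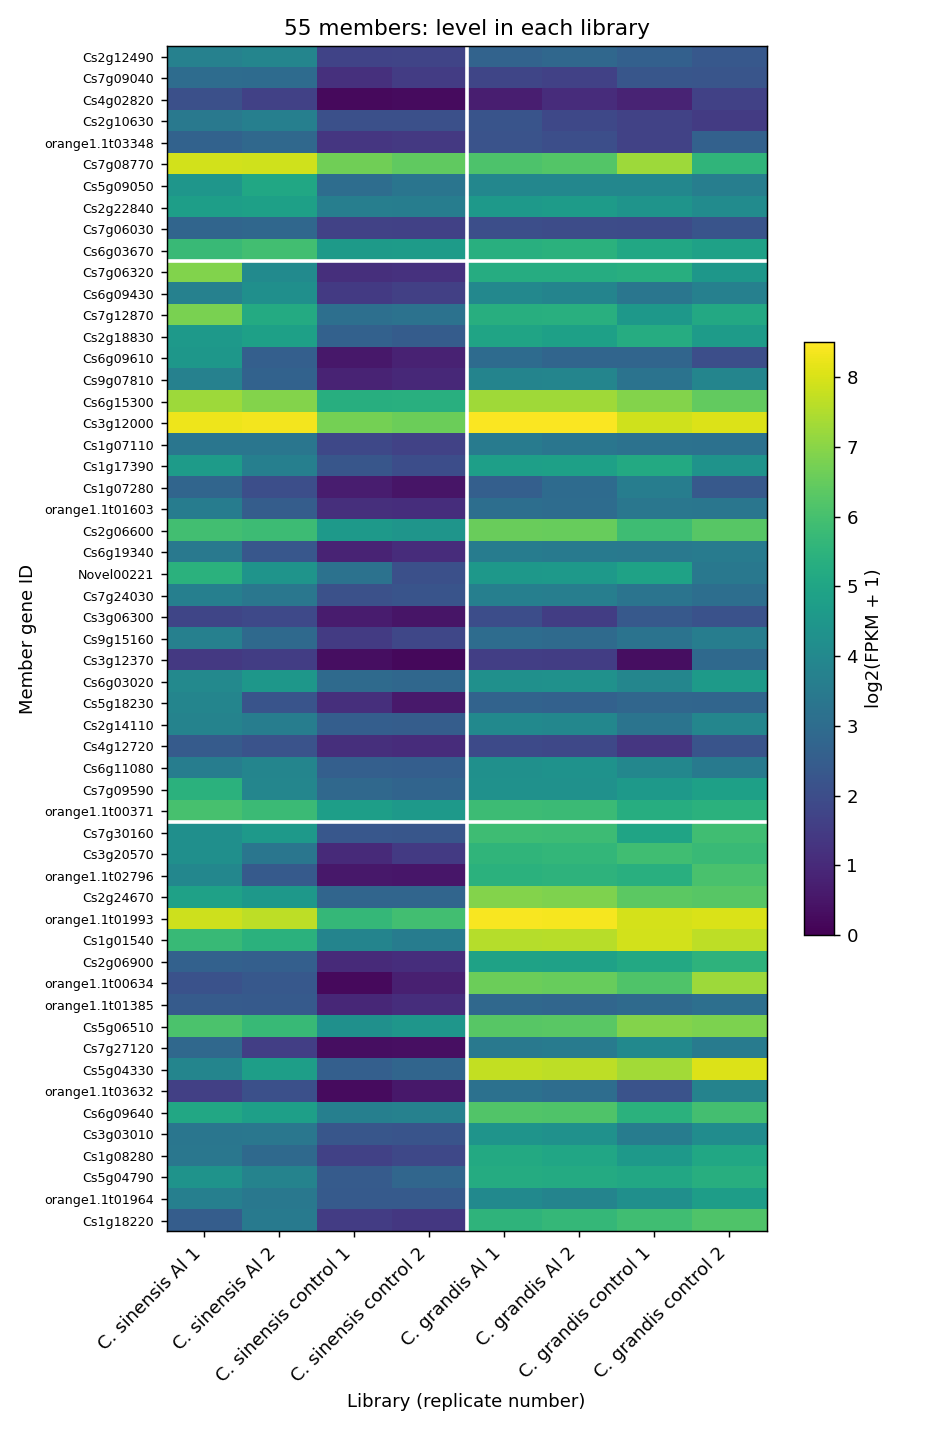
Level of each of the 55 members (rows) in each of the 8 libraries (columns) as log2(FPKM + 1). White lines part the 10 members whose C. sinensis aluminium libraries both lie above the 4 C. grandis libraries (top), the 26 that overlap them (middle) and the 19 that lie below them (bottom); the C. sinensis control columns are the darkest in most rows.

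The C. grandis side of the rule used means, and the libraries behind those means were not always close. In 9 of the 55 members the C. grandis control libraries were at least 2-fold apart, 16.4% of them, beside 9.21% of the genes tested. The C. grandis aluminium libraries were that far apart in 0 of the 55, beside 1.97% of the genes tested. The clearest case is Cs3g12370, with 2.004 and 1.90 FPKM in C. grandis aluminium leaves, against 0.245 and 6.56 FPKM in control leaves. Its mean ratio of 0.671 therefore averages 1 control library far above and 1 far below the aluminium libraries.

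Both C. grandis aluminium libraries stood above both controls in 18 members and below both in 13, and the groups overlapped in 24. Over the genes tested those placements were found in 24.7% for above and 40.1% for below. The rule used this contrast, so nothing is read from these counts. With limma (a linear model with a moderated spread, adjusted p below 0.05), Cs2g24670, Cs3g12000 and Cs6g03670 were called higher and Cs5g06510 lower with aluminium in C. grandis, beside 6.41% and 9.7% of all genes called in these directions. Those 4 genes were singled out after their values were seen. The same model called 47 of the 55 higher with aluminium in C. sinensis, where 3.74% of all genes were called. For 16 of the 55 it also called the aluminium effect larger in C. sinensis, which held for 1.52% of all genes. The rule used these contrasts too, so nothing is read from these calls.

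The species themselves were compared on the average of both treatments, C. sinensis minus C. grandis. As a sum of group means, it is orthogonal to the aluminium changes of those means. The rule, however, used the lower aluminium and the higher control library, and the C. sinensis control level entered both. The counts called are thus not independent of the choice of the 55 genes. Most of these genes were lower in C. sinensis. Of the 55, limma called 38 lower and 1 higher in C. sinensis at an adjusted p below 0.05, beside 34.1% lower and 24.9% higher among all genes tested. The rule sets a floor on the C. grandis level and none on the C. sinensis level, so genes low in C. grandis could not enter. Among the 15287 genes tested that pass the same limits on level, 36.3% were called lower and 20.7% higher. The median log2 difference was -0.96 over the 55 and -0.11 over all genes tested, and -0.16 over genes that pass the limits with the 55 left out.

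The widest species differences belonged to orange1.1t00634, Cs5g04330 and orange1.1t02796. For orange1.1t00634 the C. sinensis values were 3.41 and 4.11 FPKM with aluminium, against 0.162 and 0.693 FPKM in control leaves. In C. grandis it had 95.7 and 92.0 FPKM with aluminium, against 70.9 and 153 FPKM in control leaves. Its species difference was -5.27 (SE 0.25, limma adjusted p = 1.12e-05), and the C. sinensis control libraries held 4 and 17 reads of it. No library of one species came near those of the other.

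Cs5g04330 had 13.7 and 25.97 FPKM in C. sinensis aluminium leaves, against 4.91 and 5.82 FPKM in control leaves, and 210 and 200 FPKM in C. grandis aluminium leaves, against 159 and 267 FPKM in control leaves. Its species difference was -4.20 (SE 0.23, limma adjusted p = 2.25e-05). For orange1.1t02796 the difference was -3.74 (SE 0.34, limma adjusted p = 0.000169). In these genes C. sinensis with aluminium still stood far below C. grandis in either treatment.

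In the other direction, Cs2g10630 was the 1 member called higher in C. sinensis. It had 9.74 and 11.9 FPKM in C. sinensis aluminium leaves, against 3.23 and 3.20 FPKM in control leaves, and 3.57 and 2.63 FPKM in C. grandis aluminium leaves, against 2.20 and 1.78 FPKM in control leaves. Its species difference was 1.01 (SE 0.12, limma adjusted p = 0.000613). Its C. sinensis control libraries overlapped the C. grandis libraries, and its aluminium libraries were above them. Cs7g08770 had a difference of 0.93 (SE 0.34, limma adjusted p = 0.0512), which missed the threshold. It passed after median centring (limma adjusted p = 0.0388) and with the replicate number as a block (limma adjusted p = 0.0436). Under the other alternatives with no library left out it missed. The difference was 1.35 without C. grandis control replicate 1 and 0.50 without replicate 2.

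Among the 8 genes with the largest ratios, 6 were called lower in C. sinensis, beside 34.1% of all genes tested. The C. sinensis control level enters both that ratio and the species difference, so nothing is read from this count. The differences were -3.21 for Cs3g20570 (limma adjusted p = 3.95e-05), -2.30 for Cs7g30160 (limma adjusted p = 0.000167) and -1.29 for Cs2g18830 (limma adjusted p = 0.000466), beside that of orange1.1t02796. They were -0.96 for Cs6g09430 (limma adjusted p = 0.00159) and -1.77 for Cs7g06320 (SE 0.57, limma adjusted p = 0.0348). That of Cs7g06320 missed the threshold under 9 of 18 alternatives. Cs7g12870 at -0.52 (limma adjusted p = 0.226) and Cs2g12490 at 0.15 (limma adjusted p = 0.244) were not called. Of the abundant members, orange1.1t01993 was lower with a difference of -1.42 (limma adjusted p = 3.82e-05), as were Cs6g15300 at -0.78 (limma adjusted p = 0.00204) and Cs3g12000 at -0.72 (limma adjusted p = 0.000362).

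**Figure D4:**
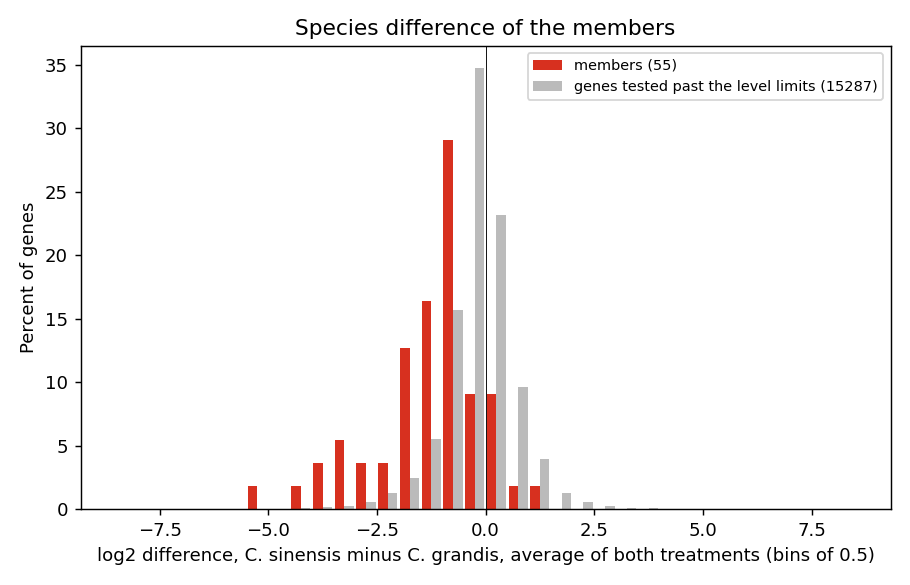
Distribution of the log2 difference between the species, C. sinensis minus C. grandis averaged over both treatments, in bins of 0.5, for the 55 members (red) and the 15287 genes tested that pass the same limits on level (grey), as percent of each. The members lie further to the left, with a median of -0.96.

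Split by treatment, the difference between the species shows where the members stood. In aluminium leaves the median log2 difference of C. sinensis minus C. grandis was -0.19, with quartiles of -1.05 and 0.36. In control leaves it was -1.92, with quartiles of -2.62 and -1.10. Over all genes tested the medians were -0.03 in aluminium leaves and -0.17 in control leaves. These values share libraries with the rule and are given without a test. A rise in C. sinensis with little change in C. grandis sets the control difference below the aluminium difference. The distance between these medians therefore restates the rule. In control leaves C. sinensis was the lower species at the median.

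Library by library, both C. sinensis control libraries lay below all 4 C. grandis libraries in 52 of the 55 members, beside 38.9% of all genes tested and 41.4% of those that pass the limits on level. The other 3, Cs2g10630, Cs7g08770 and Cs3g12370, overlapped C. grandis, beside 35.6% of all genes tested. In 0 members did the control libraries lie above, beside 25.5% of all genes tested and 21.3% of those that pass the limits. With aluminium both C. sinensis libraries lay below all 4 C. grandis libraries in 19 members, 34.5%, beside 27.5% of all genes tested and 29.2% of those that pass the limits. They lay above them in 10 members, 18.2%, beside 22.9% of all genes tested and 18.8% of those that pass the limits, a share near the background. In the other 26 they overlapped, 47.3%, beside 49.6% of all genes tested, again near the background. In 8 members the C. sinensis level thus lay below every C. grandis library in control leaves and above every one in aluminium leaves, beside 0.447% of all genes tested. In 25 it was below in control leaves and overlapped with aluminium, beside 15.3% of all genes tested. Because the rule asked for a rise between the C. sinensis groups, some shift of this kind was built in.

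Besides Cs2g12490, the 8 that passed the C. grandis level were Cs2g22840, Cs4g02820, Cs5g09050, Cs6g03670, Cs7g06030, Cs7g09040 and orange1.1t03348. None of these 8 was called in the species comparison, and their species differences ran from -0.22 to 0.19. The 19 that stayed below were all called lower in C. sinensis, from -5.27 to -1.20. The 26 that overlapped C. grandis with aluminium held the other 19 genes called lower. Placement and species difference rest on the same 8 libraries. The calls in these classes thus follow largely from the sorting, and nothing is read from them. Reads of both species were counted on 1 set of gene IDs, so a lower level in one species and a loss of its reads through sequence differences cannot be told apart. In whole leaves, fewer cells of a type and less RNA per cell cannot be told apart either.

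**Figure D5:**
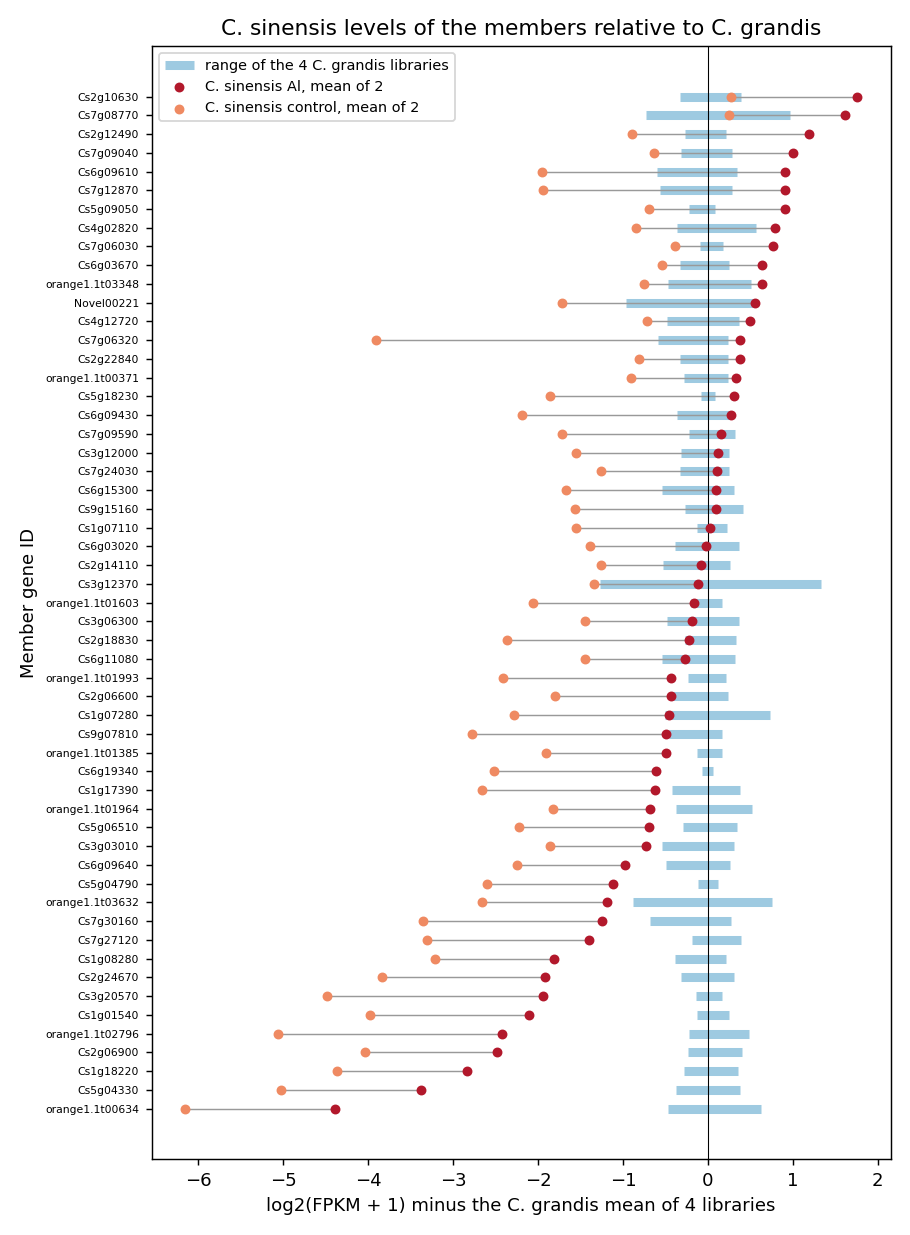
Mean log2(FPKM + 1) of each member in C. sinensis aluminium (dark red) and control leaves (orange), minus the mean of the 4 C. grandis libraries, whose range is the blue bar. Control points lie left of the bar in most members, while aluminium points spread from -4.39 to 1.75, across and to both sides of it.

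Set beside the 69 genes that stood higher with aluminium in both species, the 55 had a similar change in C. sinensis, with medians of 1.64 for the 55 and 1.88 for the 69. The placement differed. In aluminium leaves the median log2 difference of C. sinensis minus C. grandis was -0.19 for the 55 and -1.39 for the 69, and in control leaves it was -1.92 for the 55 and -0.48 for the 69. Averaged over treatments the medians were -0.96 for the 55 and -1.09 for the 69. Called lower in C. sinensis were 69.1% of the 55 and 56.5% of the 69, and called higher were 1.82% of the 55 and 4.35% of the 69. Both sets were chosen on the C. sinensis rise, and the C. grandis change that parts them is also part of the rule, so no test was made between them.

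The C. sinensis aluminium libraries did not agree equally well for all members. Replicate 1 was above replicate 2 in 35 of the 55, 63.6%, beside 44.8% of all genes tested. They were at least 2-fold apart in 13, 23.6% of the members beside 9.99% of all genes tested, and replicate 1 was the higher in 12 of these. After Cs7g06320, the widest gap was in Cs6g09610, with 21.5 and 4.98 FPKM in C. sinensis aluminium leaves, against 0.462 and 0.744 FPKM in control leaves. In C. grandis Cs6g09610 had 6.85 and 5.76 FPKM with aluminium, against 5.79 and 3.07 FPKM in control leaves, so replicate 1 of C. sinensis was above and replicate 2 within that span.

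The closest agreement was in Cs1g07110 and Cs3g03010. Cs1g07110 had 9.12 and 9.09 FPKM in C. sinensis aluminium leaves, against 2.63 and 2.18 FPKM in control leaves, and 10.6 and 9.05 FPKM in C. grandis aluminium leaves, against 8.21 and 8.10 FPKM in control leaves. Its species difference was -0.76 (limma adjusted p = 0.000656). Cs3g03010 had 9.19 and 9.44 FPKM in C. sinensis aluminium leaves, against 3.82 and 3.62 FPKM in control leaves, and 20.2 and 18.6 FPKM in C. grandis aluminium leaves, against 10.8 and 16.6 FPKM in control leaves. Cs3g03010 rests on few reads, 35 and 41 in C. sinensis leaves given aluminium, against 17 and 16 in its controls.

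Because the rule takes the lower aluminium library, replicate 2 set the ratio in the 35 genes where it was the lower one. With replicate 1 of C. sinensis aluminium left out, 129 genes met the rule, and with replicate 2 left out 266 did. All 55 were among them each time, which was fixed in advance, since the ratio can then only rise or stay. Without replicate 1, the members called lower in C. sinensis numbered 42, and those below every C. grandis library with aluminium 29 in place of 19. Without replicate 2, 38 were called lower, and those above every C. grandis library with aluminium were 21 in place of 10. The part that the gap between these pools plays in the placement of single genes was not tested.

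The 3 members nearest the 2-fold limit were so by the lower aluminium over the higher control library. By the fold of mean FPKM they were not the smallest rises. That fold was 4.24 for Cs1g18220, beside a median of 4.27 and a lowest of 2.32 over the 55. Cs1g18220 had 4.64 and 9.96 FPKM in C. sinensis aluminium leaves, against 1.82 and 1.62 FPKM in control leaves, and 45.3 and 49.5 FPKM in C. grandis aluminium leaves, against 58.3 and 71.0 FPKM in control leaves. For orange1.1t01964 the C. sinensis values were 11.8 and 9.59 FPKM with aluminium, against 4.26 FPKM in both control libraries, and the C. grandis values 15.5 and 13.3 FPKM with aluminium, against 18.0 and 25.8 FPKM in control leaves. In both genes the C. grandis aluminium libraries lay below its controls, opposite to C. sinensis. Cs5g04790 had 19.6 and 13.1 FPKM in C. sinensis aluminium leaves, against 4.37 and 5.93 FPKM in control leaves, and 36.1 and 35.7 FPKM in C. grandis aluminium leaves, against 33.1 and 38.9 FPKM in control leaves. All 3 were called lower in C. sinensis on the average of treatments, with differences of -3.60, -1.25 and -1.86 (limma adjusted p = 2.51e-05, 0.000378 and 0.000106).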

How the data were processed

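Leaf RNA of 8 libraries was measured by sequencing. The authors deposited FPKM values, 1 table per group with a column per library, per the file headers. Bowtie, TopHat2, HTSeq and edgeR 1.18.0 are named in the submitters' processing notes without a role. The sources used here name no genome build or annotation. The whole reads behind the FPKM, with gene length and library total, were worked out from the values: 100% of the values above 0 lay within 0.01 of a whole number, and genes accounted for 99.9% or more of every library total. The search looks for whole numbers, which weakens that check.

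Genes with a mean of at least 1 FPKM over 8 libraries (16327) were tested on log2(FPKM + 1) in limma 3.58.1 (R 4.3.3), a scale that understates changes at low FPKM. The fit had 1 mean for each group over the 8 libraries, with 4 residual degrees of freedom, a trend on expression, two-sided tests and Benjamini-Hochberg adjustment over all genes tested. The labels call the replicates separate pools of seedlings, and p-values rest on the spread between these, shared by all groups. The C. grandis aluminium libraries differed little beyond sampling noise, at 1.77 per degree of freedom. That pair adds little spread between pools, so it was also counted as 1 sample. The procedure was tested on simulated reads with the same relative spread in every group. The groups here differed in spread, so that test does not cover this point. The members, lists and tests were chosen with earlier results of these data known. The naming rule took the genes with the 8 largest ratios, the 5 highest levels, the 3 widest species differences per direction among those called, the 2 widest and 2 narrowest gaps between C. sinensis aluminium libraries, and 3 on each side of the 2-fold limit. Members adjacent in the ID numbering would also have been named, and there were 0. Genes outside this rule were named after their values were seen: those beside the limits of the C. grandis band, called in C. grandis, with C. sinensis controls overlapping C. grandis, passing the C. grandis level, nearest in numbering, or listed for a closer look. Alternatives covered pseudocount, filter, scaling, voom on recovered reads, a replicate block, limits of the rule and each library left out.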

Additional observations from a re-analysis of the deposited data

Results flagged for a closer look

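The gap between the species in their log2(FPKM + 1) aluminium effects, C. sinensis less C. grandis, was past the threshold of the limma test of that difference for 16 of the 55 members. It was 2.77 for Cs3g20570, 2.20 for Cs2g18830, 2.18 for Cs7g09040 and 2.11 for Cs1g01540. It was 2.09 for Cs5g06510, 2.08 for Cs6g09430, 1.98 for Cs2g06900 and 1.79 for Cs2g12490. Values of 1.73 for Cs3g06300, 1.70 for orange1.1t01964, 1.59 for orange1.1t01385 and 1.56 for orange1.1t01993 followed. The smallest were 1.36 for Cs2g24670, 1.34 for Cs1g07110, 1.24 for Cs7g06030 and 1.182 for Cs3g12000. In a further 5 members both aluminium libraries stood above both controls in C. sinensis and below both in C. grandis, and the difference did not pass the test. These were Cs5g18230 at 2.291, Cs7g09590 at 2.289, orange1.1t01603 at 2.205, Cs9g15160 at 2.11 and Cs1g18220 at 1.97. The rule sets the C. sinensis placement for every member. Both C. grandis aluminium libraries stood below both controls in 23.6% of the 55 members, beside 40.1% of all genes tested. Of the genes just outside the limits of the rule, Cs4g05760 at 2.335, Cs3g10010 at 2.17 and orange1.1t01749 at 2.15 passed the test, and Cs1g17100 at 1.60 did not but moved opposite ways in the species. All these genes were chosen for, or stand beside a choice on, a difference of this kind, so the values describe the choice.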

How the results depend on the processing

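Membership moved with the settings of the rule. In place of 55 genes, 108 met it with a pseudocount of 0.1 (47 of the 55 among them) and 16 with a pseudocount of 5 (15 among them). After median centring 34 met it (32 among them), and after quantile normalization 41 (38 among them). A 1.5-fold rise let in 260 and a 3-fold rise 14, all members. The narrower C. grandis band kept 25, all members, and a band of 2 let in 84. With the C. grandis ratio taken on FPKM without the added 1, a choice made after seeing the data, 47 met it. With any 1 library left out, 48 to 266 genes met it, with 40 to 55 of the members among them. Leaving out a C. sinensis library kept all 55 by the form of the rule. Leaving out a C. grandis library kept 40 to 53.

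The median log2 aluminium change of the members was 2 in C. sinensis and 0.17 in C. grandis with a pseudocount of 0.1, and 1.05 in C. sinensis with a pseudocount of 5. With 1 library left out it ran from 1.48 to 1.67 in C. sinensis and from -0.0082 to 0.17 in C. grandis.

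In the species comparison, 34 to 38 members were called lower under the 10 alternatives with no library left out. Of the 38 members called lower in the main fit, 34 were called in each of these that tested them. The 1 called higher became 3 with a pseudocount of 5, 2 after median centring and 1 to 3 with 1 library left out. With a filter at a mean of 5 FPKM limma called 0 higher of 44 members tested, with 1 at an unadjusted p below 0.05, since Cs2g10630 was not tested there. Voom called 1. Calls over all genes tested moved as well. The main fit called 5561 of them lower and 4061 higher in C. sinensis. After median centring these were 4539 lower and 4653 higher, and after quantile normalization 4825 lower and 4348 higher. Members called lower numbered 37 under each of these 2 scalings. With the replicate number as a block, 2 members were called higher and 38 lower, beside 3965 higher and 5345 lower over all genes tested. Nothing in the data pairs libraries by number, since correlations of their deviations ran from -0.01 to 0.05. Counting both C. grandis aluminium libraries as 1 sample, 34 were called lower.

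Placement of C. sinensis with aluminium, recomputed by choices made after seeing the data, ran from 19 to 29 members below and from 10 to 21 above every C. grandis library with 1 library left out. The difference of Cs7g06320 fell short of the threshold under 9 of 18 alternatives, with an adjusted p of 0.0553 to 0.108. EdgeR was planned on recovered reads and was not run, since the deposited values are not counts.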

Other observations

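The members were spread over the numbered ID series, with 9 of 1925 genes tested in the series Cs7g, 8 of 1261 in Cs6g, 8 of 1766 in Cs2g and 0 of 1106 in Cs8g. The closest members in the numbering were Cs6g09610 and Cs6g09640, 3 places apart. The recovered gene length of the members had a median of 1911 bp, beside 1720 bp over all genes tested.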
